A study of Pan troglodytes with 6 samples.

Results

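Astrocytes and Bergmann glia are the main supporting cells of the cerebellar cortex, and 9 genes known from them were examined in cerebellum and liver of the chimpanzee (Pan troglodytes): AQP4, NDRG2, ALDH1L1, GFAP, S100B, GDF10, HOPX, FABP7 and GJA1. A gene was taken where the platform annotation gave an array feature that 1 symbol and no other, and 7 of the 9 genes were found, each on 1 feature, out of 12584 named genes on 15143 features. S100B and GJA1 had no such feature and are not analysed here. The tissues were compared on 3 Human Exon 1.0 ST arrays of cerebellum and 3 of liver, which carry probes designed on human sequence. For either tissue the labels list a 27-year-old female as replicate 1, a 37-year-old male as replicate 2 and a 30-year-old male as replicate 3. They call these biological replicates and give no treatment or genotype. The labels do not say whether a cerebellum and a liver of 1 number came from 1 animal.

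Astrocytes clear transmitter and potassium from the space around synapses, pass water through endfeet on blood vessels and are coupled to each other by gap junctions. Bergmann glia are the radial astrocytes of the cerebellum, whose fibres run beside the dendrites of Purkinje cells. AQP4 is the water channel of the endfeet, GFAP a filament protein of the glial skeleton, FABP7 a carrier of fatty acids in radial glia, HOPX a homeodomain protein without DNA binding of its own, and GDF10 a secreted relative of the bone morphogenetic proteins. NDRG2, a protein of the N-myc downstream-regulated family, and ALDH1L1, a folate enzyme, serve as astrocyte markers in brain but are also known from liver.

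Values are deposited intensities on a linear scale with a median of 96.3 on every array. Differences are given on a log2 scale as cerebellum minus liver, after setting values below 0 to 0 and adding a pseudocount of 16.8, the 10th percentile of all values, so that differences of dim genes are understated. The levels of different genes are not compared, because each feature has its own probes, and the number of arrays limits the precision. The tissue labels were borne out by defining markers: the summed intensity of 4 hepatocyte markers was 50.9 to 118 on the cerebellum arrays and 13719 to 15890 on the liver arrays, and that of 3 granule cell markers was 4876 to 5837 and 98.2 to 105. In whole tissue, fewer cells of a type and less RNA per cell cannot be told apart.

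Of the 7 measured genes, 6 were higher in cerebellum and 1, ALDH1L1, was higher in liver (limma, adjusted p under 0.05 over all features). Among all features 26.7% were called higher in cerebellum and 23.9% higher in liver. The counts of gene lists below are to be read beside these shares. For each of the 7 genes the 3 values of one tissue lay entirely on one side of the other tissue's values, against 31.0% of all features with cerebellum above and 28.5% with liver above. The median log2 difference of the 7 genes was 1.66, beside 0.04 over all features. Tested against a 2-fold difference (limma's treat), AQP4, FABP7 and GFAP were called higher in cerebellum and ALDH1L1 higher in liver, a test that 8.55% and 8.92% of all features passed in these directions.

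**Figure D1:**
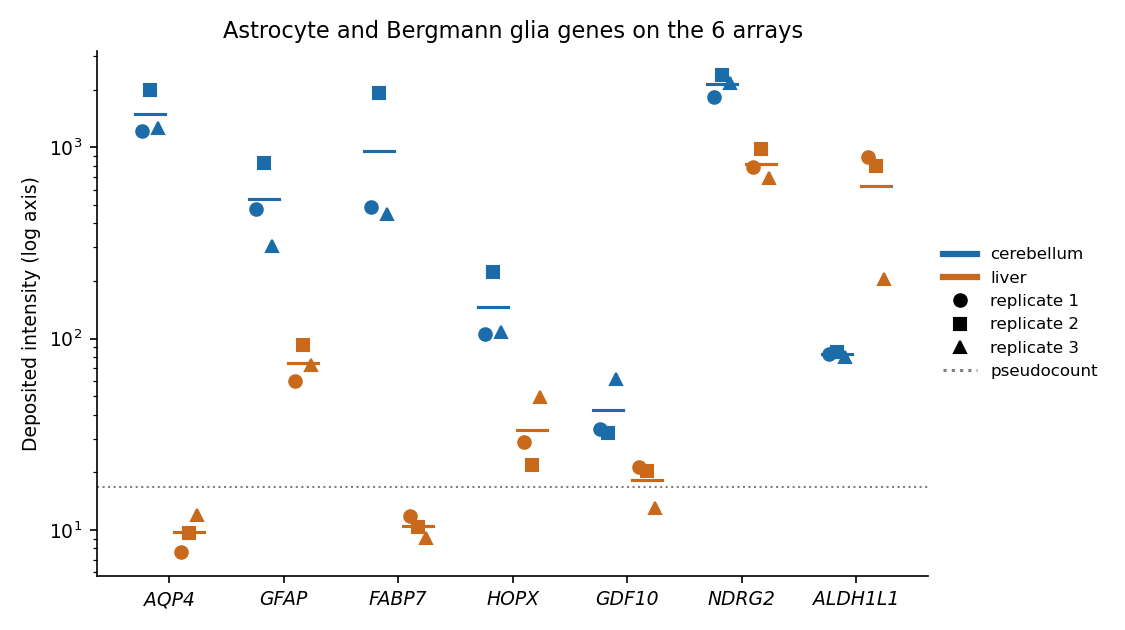
Deposited intensity (log axis) of the 7 measured astrocyte and Bergmann glia genes on the 3 cerebellum arrays (blue) and 3 liver arrays (orange); symbols mark the replicate, short lines the tissue means and the dotted line the pseudocount of 16.8. AQP4 and FABP7 lay below the pseudocount on all 3 liver arrays, NDRG2 lay between 688 and 976 there, and ALDH1L1 was the gene with liver above cerebellum.

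AQP4, the water channel, was at 1221, 1988 and 1257 on cerebellum replicates 1 to 3 and at 7.68, 9.67 and 11.97 on the liver arrays. All 3 liver values were under the pseudocount, and replicate 2 was the highest cerebellum array. The means were 1489 ± 433 and 9.78 ± 2.14 (SD, n = 3 per tissue here and below), with a log2 difference of 5.79, a standard error of 0.22 and a 95% interval of 5.28 to 6.30 (limma, adjusted p = 3.30e-07). Because liver was so dim, the size follows the pseudocount: it was 6.20 with the 5th percentile of all values, 5.21 with the 20th and 6.44 with a hard floor at the 10th.

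No other measured aquaporin was called higher in cerebellum. Of 8 measured channels of that family, which move water or glycerol, 7 were not called and AQP5 was higher in liver, at a mean of 22.5 against 45.9 (log2 difference -0.67, limma adjusted p = 0.00887). With the arrays aligned on general genes it did not pass (log2 difference -0.31, limma adjusted p = 0.214). AQP1, a channel of choroid plexus and endothelium named here after its values were seen, was at 34.5, 169 and 32.9 in cerebellum and 70.8, 74.0 and 90.9 in liver. Its replicate 2 value alone lay above the livers, so the tissues overlapped (limma, adjusted p = 0.640).

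Of 5 measured genes of the endfoot complex, which anchors AQP4 to the membrane and basal lamina, 2 were higher in cerebellum and 3 in liver. MLC1, a membrane protein of astrocyte endfeet, was at 188, 435 and 203 in cerebellum and 90.0, 101 and 85.8 in liver. Replicate 2 again stood above the other cerebella, and the tissues did not overlap (log2 difference 1.32, limma adjusted p = 0.00584). DMD, which encodes dystrophin, differed by 1.20 (limma, adjusted p = 3.29e-04). SNTB1, a syntrophin that binds dystrophin and its relatives, went the other way by -3.07, with means of 60.8 in cerebellum and 614 in liver.

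GFAP was at 475, 828 and 304 in cerebellum and at 59.7, 92.3 and 72.8 in liver. Replicate 2 was the highest array in both tissues, and the lowest cerebellum value was above the highest liver value. The means were 536 ± 267 and 74.96 ± 16.4, a log2 difference of 2.49 with a standard error of 0.33, or 5.63-fold on this scale (limma, adjusted p = 3.38e-04). GFAP is also known from hepatic stellate cells. Of 6 measured markers of those cells, 3 were higher in liver, 1 in cerebellum and 2 were not called, and their summed intensity ranged from 938 to 1408 in liver and 2261 to 2974 in cerebellum. Most of the cerebellum sum came from RELN, which granule cells also express, at 1791, 2145 and 2004. The part of stellate cells in the liver signal of GFAP was not tested.

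The relatives of GFAP among filament proteins differed among themselves. Of 9 measured type III and IV filament genes, 5 were higher in cerebellum and 1 in liver, with a median of 1.36. INA, NEFL and NEFM, filament proteins of neurons, differed by 4.46, 4.43 and 3.66. NES, a filament protein of progenitors, differed by 1.36 (limma, adjusted p = 3.80e-04). VIM, which encodes vimentin of mesenchymal cells and of immature and radial glia, was at 22.6, 51.0 and 19.7 in cerebellum and 251, 309 and 472 in liver. It was thus lower in cerebellum on every array, by a log2 difference of -2.93 (limma, adjusted p = 7.50e-05), opposite to GFAP.

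FABP7 was at 489.8, 1926.5 and 450.4 in cerebellum and at 11.9, 10.3 and 9.10 in liver. The livers were close together and all under the pseudocount, while cerebellum replicate 2 was 4.28 times the lowest cerebellum value. The means were 956 ± 841 and 10.4 ± 1.39, with a log2 difference of 4.83 ± 0.49 (standard error) (limma, adjusted p = 6.20e-05). Without cerebellum replicate 2 the difference was 4.16, which is 17.9-fold in place of 28.4-fold (limma, adjusted p = 7.33e-06). The pseudocount moved it between 4.28 and 5.21, and a hard floor gave 5.49.

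FABP1, the liver form of these carriers, is not analysed here. Of 7 measured genes of the fatty acid and retinoid binders, 1 was higher in cerebellum, 1 in liver and 5 were not called. RBP5, a retinol binder, was at 32.5, 23.4 and 32.6 in cerebellum and 1076, 1442 and 778 in liver. Each liver was far above each cerebellum (log2 difference -4.55, limma adjusted p = 1.63e-06). CRABP2, a binder of retinoic acid, was called higher in cerebellum by 0.52 (limma, adjusted p = 0.0491), but all its 6 values were under the pseudocount, and with a hard floor there it gave no difference.

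HOPX was at 105, 223 and 109 in cerebellum and at 28.8, 21.8 and 49.5 in liver. Replicate 2 was 2.12 times the lowest cerebellum, replicate 3 was the highest liver, and the tissues did not overlap. The means were 146 ± 67.2 and 33.4 ± 14.4, with a log2 difference of 1.66 ± 0.31 (standard error) (limma, adjusted p = 0.00230). Of 5 measured partners of HOPX known from other tissues, GATA4 and GATA6, transcription factors of heart, gut and liver, were higher in liver by -3.41 and -2.91. Every GATA4 value in cerebellum was below 0 and was set to 0, so the size of its difference follows the pseudocount. SRF and MYOCD were not called. HDAC2, a histone deacetylase, was higher in cerebellum by 0.57 (limma, adjusted p = 0.0411), a call that was lost when cerebellum replicate 2 or 3 or liver replicate 1 or 2 was left out (adjusted p from 0.0825 to 0.131).

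GDF10, a ligand known from Bergmann glia, was the least secure of the 7. It was at 33.5, 32.2 and 61.2 in cerebellum and at 21.4, 20.3 and 13.03 in liver. Replicate 3 was the highest cerebellum and the lowest liver, and the tissues did not overlap. The means were 42.3 ± 16.4 and 18.2 ± 4.53, with a log2 difference of 0.73 and a 95% interval of 0.21 to 1.25 (limma, adjusted p = 0.0262). The call was lost without cerebellum replicate 3 (log2 difference 0.51, limma adjusted p = 0.103), without liver replicate 3 (0.62, adjusted p = 0.0669) and without liver replicate 2 (0.78, adjusted p = 0.0540).

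Among 30 measured relatives, receptors and signal carriers of GDF10, 8 were higher in cerebellum, 8 in liver and 14 were not called. Of all features 26.7% were called higher in cerebellum and 23.9% higher in liver, close to the shares of this list. Ligands were called in both directions. BMP10, BMP4 and BMP2 differed by -2.68, -1.77 and -1.61. BMP10 and BMP4 lay under the pseudocount on all cerebellum arrays, so the size of their differences follows it. BMP7 and GDF11 were higher in cerebellum by 0.87 and 0.83 (limma, adjusted p = 0.00823 and 0.0251). The type II receptor TGFBR2 was at 27.9, 58.6 and 24.8 in cerebellum and 399, 355 and 513 in liver. Every liver was thus above every cerebellum (log2 difference -3.06), while the receptors ACVR2B and BMPR1B were higher in cerebellum by 1.59 and 1.31. BMP7, GDF11, ACVR2B and BMPR1B were named after their values were seen.

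NDRG2 was bright in both tissues, at 1834, 2398 and 2179 in cerebellum and at 788, 976 and 688 in liver. Replicate 2 was the highest in each tissue, and the lowest cerebellum was well above the highest liver. The means were 2137 ± 285 and 817 ± 146, with a log2 difference of 1.37 and a 95% interval of 0.92 to 1.83, or 2.59-fold (limma, adjusted p = 5.06e-04). Its relatives NDRG4, known from neurons, and NDRG3 were higher in cerebellum by 4.91 and 3.27. On the liver arrays NDRG4 lay between 25.1 and 39.3 and NDRG3 between 59.2 and 96.4. NDRG1, named after its values were seen, overlapped between the tissues, at 423, 189 and 159 in cerebellum and 169, 280.0 and 236 in liver (limma, adjusted p = 0.894).

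ALDH1L1, which oxidises formyl-tetrahydrofolate, was at 82.6, 85.2 and 80.2 in cerebellum and at 890.5, 794 and 205 in liver. The cerebella hardly differed, while liver replicate 3 was far below the other livers and still above every cerebellum. The means were 82.7 ± 2.48 and 629.8 ± 371, with a log2 difference of -2.46 ± 0.48 (standard error) (limma, adjusted p = 0.00271), which is 5.49-fold toward liver. Without liver replicate 3 the difference was -3.11, or 8.63-fold (limma, adjusted p = 6.10e-06). Among 7710 features whose liver mean was above the array median, 98.3% had a smaller SD of log2 values across the livers than ALDH1L1.

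Other folate enzymes lay on the same side. Of 14 measured genes that make, move or use carbon units on folate, 10 were higher in liver, 0 in cerebellum and 4 were not called, with a median of -2.36. Of all features 23.9% were called higher in liver and 26.7% in cerebellum. GNMT, a methyltransferase that folate regulates, was at 25.5, 31.1 and 29.1 in cerebellum and 2367, 1684 and 543 in liver. It shared the low value of ALDH1L1 on liver replicate 3. SHMT1 and FTCD, enzymes that load folate with carbon from serine and histidine, differed by -4.23 and -4.06, and DMGDH, which oxidises dimethylglycine, by -4.36.

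On liver replicate 3 most of these enzymes lay below the mean of the other livers, to unequal degrees. GLDC and FPGS lay above it, by 0.41 and 0.02 on the log2 scale. The 10 folate enzymes called toward liver had a median of -0.43 on the log2 scale against the mean of the other 2 livers, with 2 of 10 above it, whereas ALDH1L1 lay at -1.95 and NDRG2 at -0.34. The 4 hepatocyte markers had a median of -0.05, although CPS1, the first enzyme of the urea cycle, was at 1503 there beside 3077 and 2715. Markers of macrophages were above the other livers in 5 of 5 genes on that array, with a median of 0.67. Endothelial markers were above in 3 of 4, with a median of 0.60, and stellate cell markers in 2 of 6, with a median of -0.38. Of all features, 48.1% lay above on that array. The part of these differences in the low ALDH1L1 value was not tested.

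**Figure D2:**
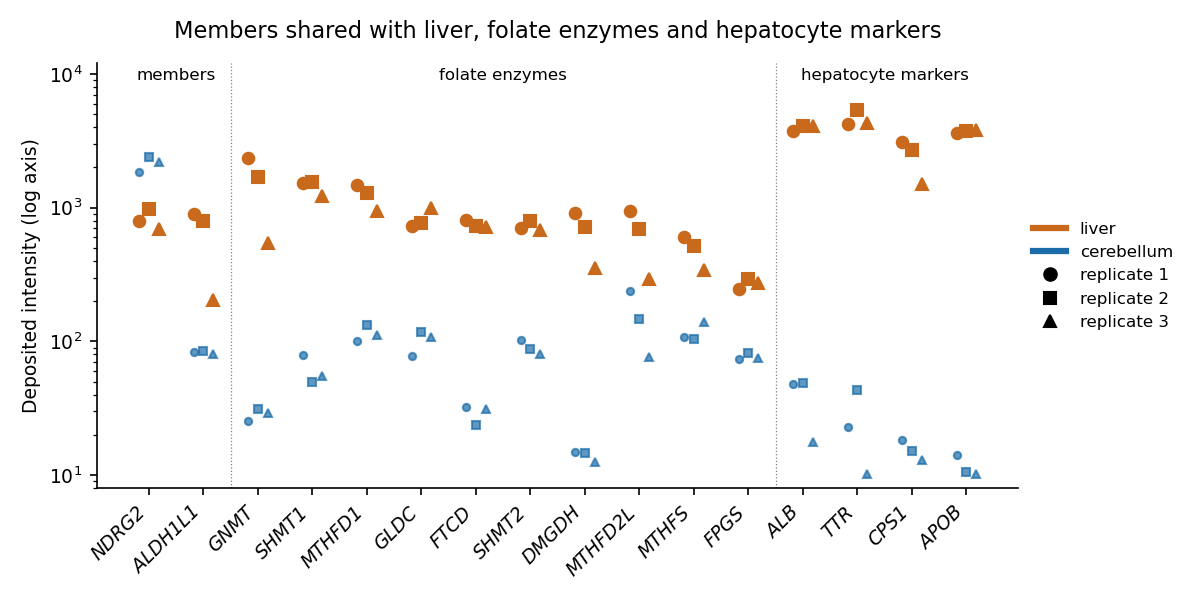
Deposited intensity (log axis) of NDRG2 and ALDH1L1, of the 10 folate enzymes called higher in liver and of 4 hepatocyte markers, on liver (orange) and cerebellum arrays (blue), with symbols for the replicates. ALDH1L1 and GNMT were lowest on liver replicate 3, at 205 and 543, while APOB hardly differed between livers.

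For the families of the genes that could not be measured, only relatives can be given. Connexins form gap junctions, and of 12 measured connexins and pannexins 3 were higher in cerebellum, 5 in liver and 4 were not called. The shares of all features were 26.7% and 23.9%. GJB6, which astrocytes use beside GJA1, was at 77.4, 259 and 92.8 in cerebellum and 34.5, 31.1 and 13.05 in liver. Replicate 2 was the highest, and the tissues did not overlap (log2 difference 1.76, limma adjusted p = 0.00654). GJC1 was also higher in cerebellum, by 2.10, and GJB1 and GJB2, the connexins of hepatocytes, were higher in liver by -4.07 and -2.32.

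S100 proteins bind calcium, and of 10 measured genes on the list of S100B relatives 6 were higher in liver, 0 in cerebellum and 4 were not called, with a median of -0.94. S100A11 and S100A16 differed by -2.85 and -2.78, and S100A8, known from neutrophils, by -2.02. S100A10, a partner of annexin, was at 172, 280.2 and 85.6 in cerebellum and 773, 509 and 2062 in liver. Replicate 3 was the highest liver and the lowest cerebellum (log2 difference -2.41, limma adjusted p = 0.00536).

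Across all lists of relatives and partners, 98 genes were measured, of which 20 were higher in cerebellum (20.4%) and 34 in liver (34.7%), with a median of -0.12, beside 26.7% and 23.9% of all features. Of 74 other measured genes known from astrocytes or Bergmann glia, 5 of which are also among the relatives (DES, GJB6, NES, SYNM and VIM), 35 were higher in cerebellum (47.3%), 23 in liver (31.1%) and 16 were not called, with a median of 0.58. Both splits depend on scaling. With an alignment of the arrays on 60 genes of ribosomes, proteasomes and the respiratory chain, the median of all features moved from 0.04 to 0.39. The glial genes then gave 40 and 16, the relatives 28 and 27, and all features 5761 and 2401, while the 7 genes kept their directions and calls. Of the called glial genes 60.3% were toward cerebellum on the deposited scale, beside 52.8% of all called features. After the alignment these shares were 71.4% and 70.6%, and thus nearly equal. For the relatives the share went from 37.0% to 50.9%.

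**Figure D3:**
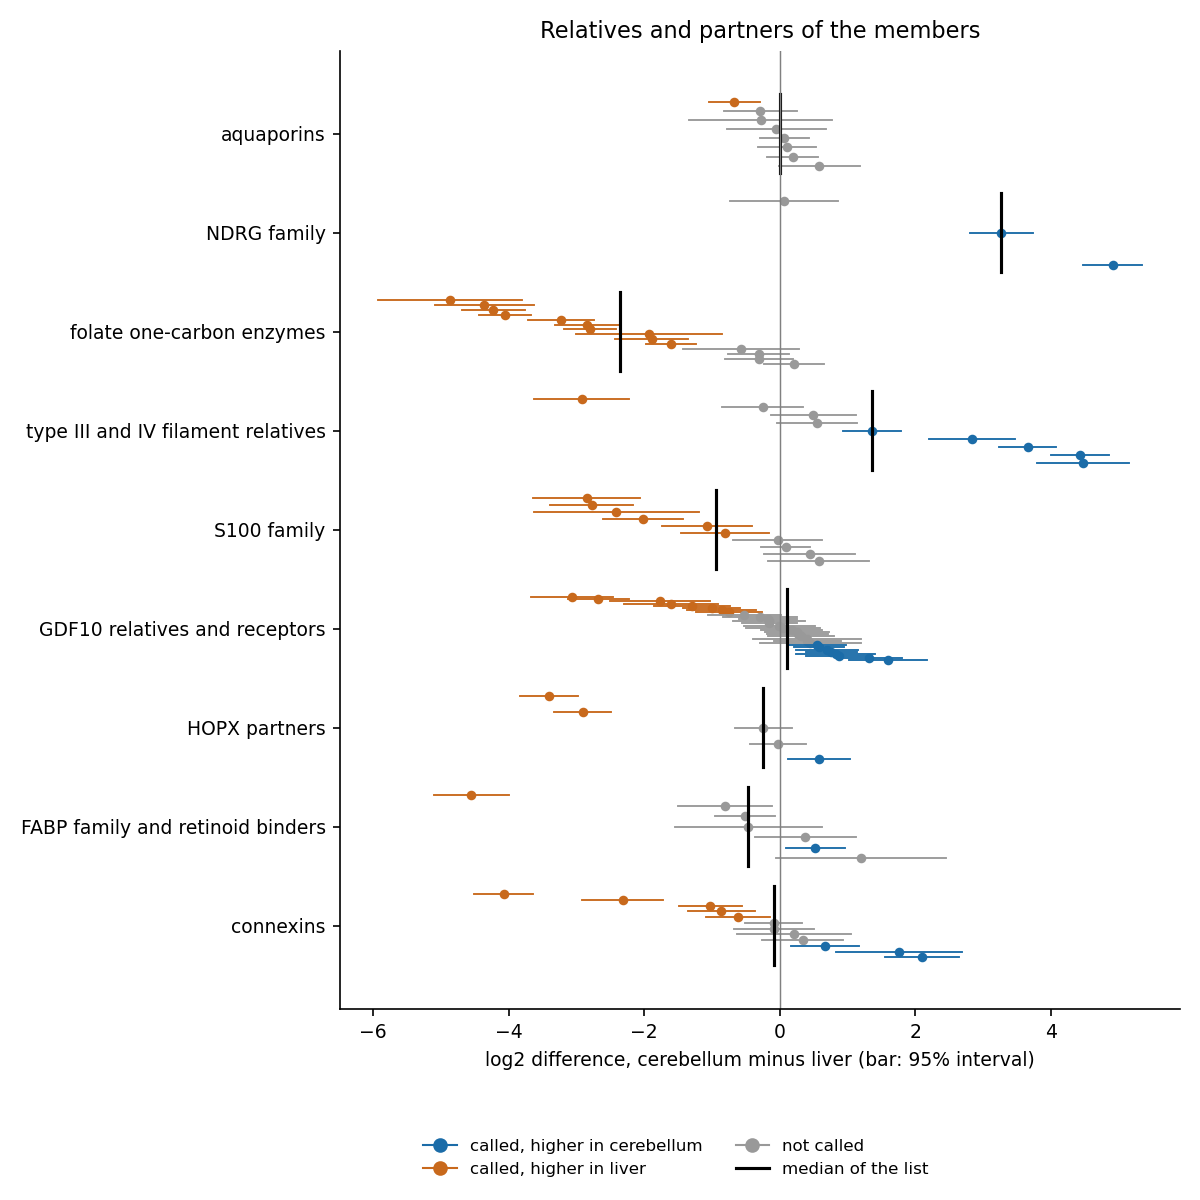
Log2 difference, cerebellum minus liver, of each measured relative or partner of the 9 genes, by family, with 95% intervals from limma; blue and orange mark calls toward cerebellum and liver, grey marks genes not called, and black lines are list medians. Folate enzymes and S100 genes lay toward liver, with medians of -2.36 and -0.94. The aquaporins, with tissue means under the array median, clustered around 0.

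The glial genes divided by role. The counts by role are on the deposited scale, without the alignment on general genes. On that scale 26.7% of all features were called higher in cerebellum and 23.9% higher in liver. Of 10 genes of gap junctions, adhesion and extracellular matrix, 9 were higher in cerebellum and 0 in liver, with a median of 2.05. NRCAM, an adhesion molecule that neurons also express, differed by 4.13, and PTPRZ1, a receptor phosphatase of glia, by 3.80. Of 7 genes of potassium, water and pH handling, 6 were higher in cerebellum, led by ATP1B2, a sodium pump subunit of astrocytes, at 3.98 and the channel KCNK1 at 2.87. CA2, a carbonic anhydrase, was the exception at -3.43.

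Of 7 genes of transmitter uptake and glutamine, 5 were higher in cerebellum and 1 in liver. SLC1A3, the glutamate transporter of Bergmann glia, was at 1594, 2595 and 2738 in cerebellum and 28.5, 19.1 and 52.9 in liver. It was low on all livers (log2 difference 5.55, limma adjusted p = 1.83e-06), and SLC38A3, a glutamine transporter, was higher in liver by -4.09. SLC1A2, the other glutamate transporter of astrocytes and named after its values were seen, was at 905, 1296 and 865 in cerebellum and 541, 881 and 26.6 in liver. Liver replicate 3 was far below the other livers, and the tissues overlapped (limma, adjusted p = 0.138).

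Genes of glial fate and signalling were mixed, with 7 of 17 higher in cerebellum and 4 in liver. NTRK2, the receptor of brain-derived neurotrophic factor, and ID4 differed by 4.14 and 3.07, and ID3, a relative of ID4, by -3.26. Lipid and metabolic genes were also mixed, with 5 of 14 in each direction. ALDOC, an aldolase of astrocytes and Purkinje cells, and GPR37L1, a receptor of Bergmann glia, differed by 3.46 and 2.38, and CPT1A, which admits fatty acids to mitochondria, by -3.13.

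Filament and reactive glia genes were mostly higher in liver, at 9 of 14 against 1. Some genes of this list are also known from liver, and the cause of the split was not tested. SERPINA3, a protease inhibitor that liver secretes into plasma, differed by -7.03.

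**Figure D4:**
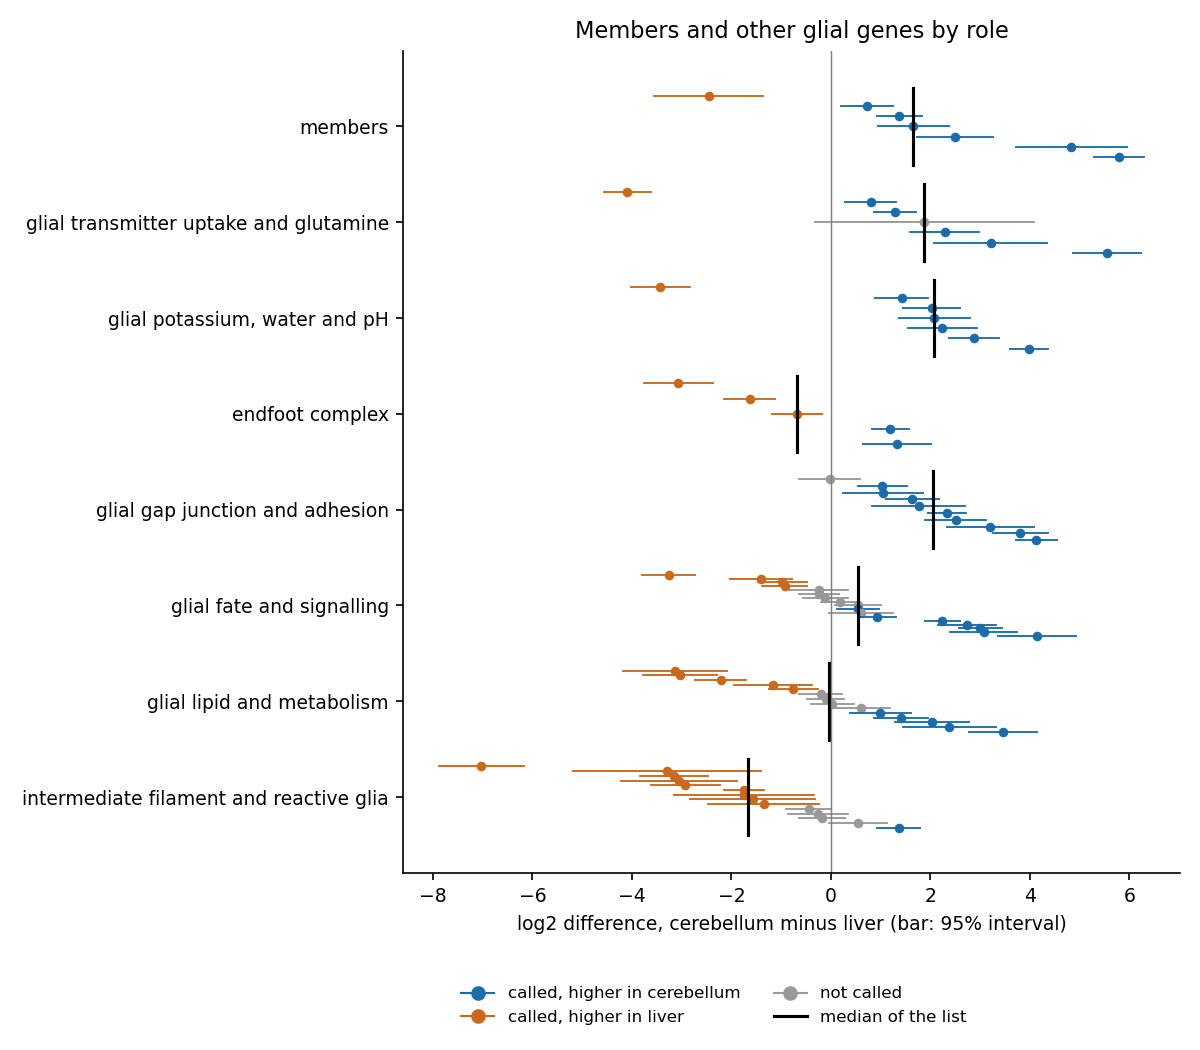
Log2 difference, cerebellum minus liver, of the 7 measured genes and of other glial genes by role, with 95% intervals from limma; blue and orange mark calls toward cerebellum and liver, grey marks genes not called, and black lines are list medians. Gap junction and adhesion genes had a median of 2.05, and the filament and reactive list one of -1.66.

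Within cerebellum the glial genes differed between the arrays. Replicate 2, the male of 37 years, was the highest cerebellum array for AQP4, NDRG2, ALDH1L1, GFAP, HOPX and FABP7, and GDF10 was the exception. Against the mean of the other 2 cerebella on the log2 scale, replicate 2 lay at 2.00 for FABP7, 1.09 for GFAP, 0.96 for HOPX, 0.67 for AQP4, 0.26 for NDRG2, 0.05 for ALDH1L1 and -0.35 for GDF10. Each array is set against the other 2, so the 3 shifts of a gene balance. No test is given for 1 array against 2. The genes and lists were chosen with the higher astrocyte markers on replicate 2 already known. The counts here and below are therefore not independent of that pattern.

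Of the other 74 glial genes, 61 (82.4%) lay above the mean of the other cerebella on replicate 2, with a median shift of 0.33. On replicates 1 and 3 there were 26 and 19, with medians of -0.19 and -0.17. Among all features 49.0% lay above on replicate 2, and among those with a cerebellum mean above the array median 48.9% did. For the 35 glial genes called higher in cerebellum the count was 27, beside 41.4% of all features with that call, and 66.1% of all features called higher in liver lay above. The pattern was not particular to glial genes. Of 23 proteasome genes 20 lay above on replicate 2 with a median of 0.35, of 28 oxidative phosphorylation genes 23 with a median of 0.31, and of 9 ribosomal protein genes 4. SLC7A11, the cystine transporter of astrocytes, was at 116, 582 and 147, a shift of 2.02 on replicate 2 close to that of FABP7, and GJB6 had a shift of 1.44.

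Markers of Purkinje cells and endothelium moved with the glial genes, and those of other cells did so in part or not at all. On replicate 2, all 5 Purkinje cell markers were above the other cerebella with a median of 0.72, all 4 endothelial markers with a median of 0.81, 4 of 5 macrophage and microglia markers with a median of 0.53 and 2 of 3 granule cell markers with a median of 0.28. Of 5 oligodendrocyte markers 1 was above, with a median of -0.21. The summed intensities on cerebellum replicates 1 to 3 were 3911, 6578 and 4278 for Purkinje cells, 239, 390.4 and 223 for endothelium, 334, 264 and 157 for macrophages and microglia, 4876, 5460.3 and 5837 for granule cells and 5365, 1762 and 2252 for oligodendrocytes. Most of the oligodendrocyte sum came from 1 feature of MBP, at 4297, 966 and 1481. A second MBP feature, not in the sum, differed between the tissues in the opposite direction. The part of these marker differences in the high glial values of replicate 2 was not tested. Without that array, the same 6 genes were called toward cerebellum.

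**Figure D5:**
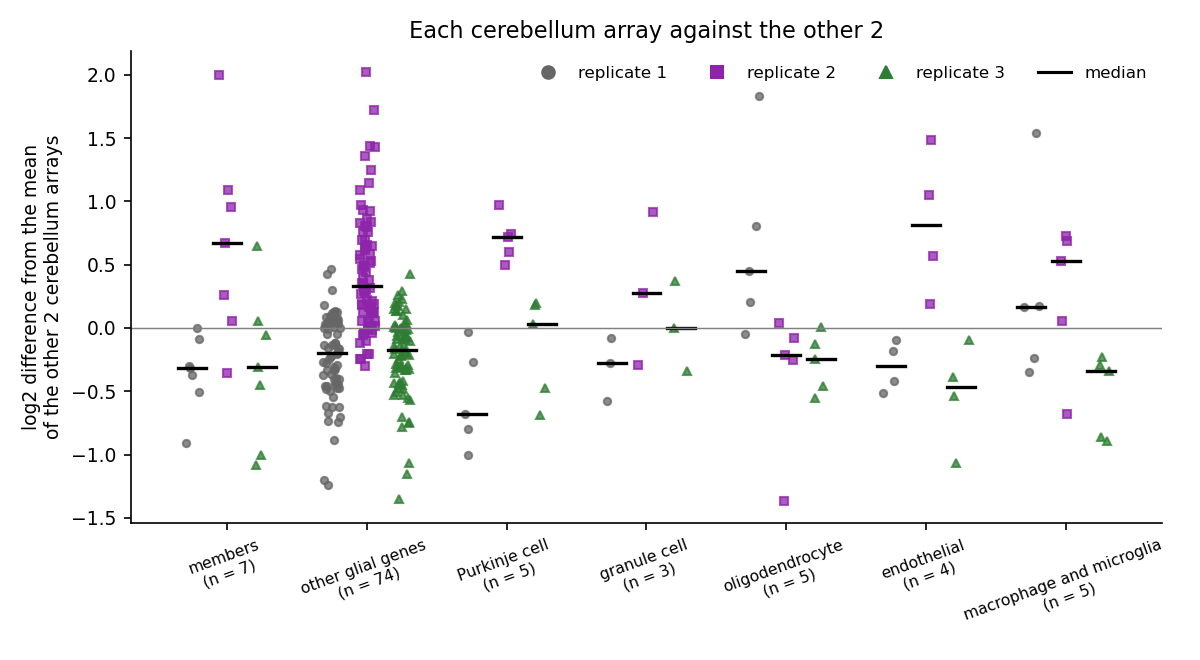
Log2 difference of each cerebellum array from the mean of the other 2, for the 7 measured genes, the other glial genes and markers of 5 other cell types; each point is a gene, symbols and colours mark the replicate and black lines are medians. Replicate 2 lay above for 6 of the 7 genes and for 61 of the 74 other glial genes, and below for most oligodendrocyte markers. The lists were chosen with the higher astrocyte markers on replicate 2 already known.

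The spread across the cerebella also differed between the genes. Among 7662 features with a cerebellum mean above the array median, the median SD of log2 values was 0.21. FABP7 had an SD of 1.16, larger than that of 99.6% of those features, GFAP one of 0.70, larger than 97.65%, and HOPX one of 0.55, larger than 94.7%. AQP4 had 0.39, larger than 83.6%, and NDRG2 had 0.19, larger than 46.2%. GDF10 and ALDH1L1, whose cerebellum means were under the array median, had SDs of 0.38 and 0.04, the second being the smallest of the 7.

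The genes most like each of the 7 over the 6 arrays were found by the root mean square distance of log2 values centred on each gene's own mean, among 12583 other genes. AQP4 was nearest to GABRB2, a subunit of the GABA-A receptor, and FAIM2, a neuronal inhibitor of cell death, at distances of 0.13 and 0.15. NDRG2 was nearest to TTC19, an assembly factor of the respiratory chain, and RPS6KB1, a kinase of the mTOR pathway, at 0.09 and 0.10, and GDF10 to CRACR2B and TMPRSS11A at 0.10 and 0.12. ALDH1L1 was nearest to ADGRG7 at 0.14 and to GPT, alanine aminotransferase of liver, at 0.17.

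GFAP was nearest to SNCAIP, a partner of alpha-synuclein, and CATSPERT at 0.17 and 0.19, and HOPX to FAM171A2 and the protocadherin PCDHB4, both at 0.18. FABP7 had no near neighbour: the closest were DLG2, a synaptic scaffold protein, and CKB, a creatine kinase, at 0.46 and 0.49. With 2 tissues and 6 arrays the distance reflects the size of the tissue difference and the pattern among replicates of a tissue. DLG2 and CKB were highest on cerebellum replicate 2, as was FABP7. ADGRG7 and GPT were lowest on liver replicate 3, as was ALDH1L1.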

How the data were processed

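The authors' deposited values are linear intensities of 15143 features on each array. GCOS is named without a version per the submitters' processing notes. The method of background correction and probe summary is not given in the sources used here. All 6 arrays hold the same set of values (0 sorted positions differ), so they had been quantile normalized, and 93 values per array lay below 0. Gene names came from the platform annotation, with 1 symbol on 12685 features, several on 1780 and none on 678, and all 7 measured genes matched the RefSeq gene table by symbol. Where a symbol had more than 1 feature, the brightest by its mean was used.

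Values below 0 were set to 0, the pseudocount was added and log2 taken. All features were fitted with limma 3.58.1 in R 4.3.3 (lmFit, eBayes, two-sided, no block, no filter), with Benjamini-Hochberg adjustment over 15143 features and a threshold of 0.05. The p values rest on 1 variance per feature, pooled over both tissues with 3 arrays each and moderated across features. They assume an equal spread in both tissues. For ALDH1L1 the SDs of log2 values were 0.04 in cerebellum and 1.13 in liver, and for FABP7 1.16 and 0.07. An exact permutation test of 3 against 3 cannot go below 0.1. The fit was tested on simulated data. The 9 genes and all lists were chosen with earlier results of these data known, among them the higher astrocyte markers on cerebellum replicate 2. Of the listed genes outside the 9, 20 were named only on features with several symbols and were not used. Named genes were the 7, up to 4 called relatives per family with the largest difference, the 2 largest called toward cerebellum and the largest toward liver of each other list, and the 2 nearest genes of each of the 7. Marker lists covered hepatocytes, stellate cells, oligodendrocytes, granule and Purkinje cells, macrophages, endothelium and ependyma. Other named genes were chosen after their values were seen.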

Additional observations from a re-analysis of the deposited data

How the results depend on the processing

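Calls of AQP4, GFAP, FABP7 and ALDH1L1 held under all 16 alternatives, with log2 differences of 5.21 to 6.44, 2.13 to 2.85, 4.16 to 5.49 and -3.11 to -2.09. NDRG2 and HOPX lost theirs only in the test against a 2-fold difference (limma's treat, adjusted p = 0.212 and 0.159), and GDF10 in that test (adjusted p = 1) and without the 3 arrays named above. GDF10 fell out when features under the 25th percentile of means were left out. Repeated quantile normalization and centring on the median change nothing here by construction. Tested against 2-fold, the counts were 3 in place of 6 for the 7 genes toward cerebellum, 2645 in place of 7662 for all features, 21 and 12 in place of 35 and 23 for other glial genes, and 7 and 20 in place of 20 and 34 for relatives, because that test asks for a larger difference. Leaving out 1 array gave 5 to 6 calls toward cerebellum and 1 toward liver among the 7, and 6113 to 7670 over all features. A second feature named MBP, an oligodendrocyte gene, had a log2 difference of -2.64, opposite to the brighter one; the cause was not tested.

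The replicate numbers did not meet the criterion for pairing: deviations from the tissue means correlated at 0.11, 0.16 and -0.14 for numbers 1, 2 and 3 across features, and cerebellum replicate 3 correlated best with liver replicate 1 (0.24). With the replicate number as a block, 7532 features were called, and all 7 genes kept their call (limma, largest adjusted p = 0.0474, for GDF10). Among the other genes named above, HDAC2, CRABP2 and TMPRSS11A were not called with that block (limma, adjusted p = 0.0607, 0.0608 and 0.0687).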

Other observations

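Several genes of the reactive glia list were highest on liver replicate 3, the array on which ALDH1L1 was low. Of the 14 measured genes on that list, 9 lay above the mean of the other 2 livers on that array and the rest lay below. The list median was 0.38, and 48.1% of all features lay above. The 4 given here are named after their values were seen. LCN2, an iron-binding protein of acute inflammation, was at 81.6, 205 and 1489 on liver replicates 1 to 3, and CHI3L1, a chitinase-like protein, was at 52.4, 97.2 and 426. CD44, a receptor of hyaluronan, was at 165, 214 and 631, and TNC, a matrix protein, at 28.8, 23.1 and 154. COL1A1, a collagen of activated stellate cells and fibroblasts from the stellate cell list, was at 78.5, 74.5 and 600.2. It did not stand for that list: 2 of its 6 measured genes lay above the other livers on replicate 3, with a median of -0.38. In cerebellum all 3 values of LCN2 were under the pseudocount, so no order can be read from them, and CD44 was at 72.0, 179 and 42.6, highest on replicate 2 like most of the glial genes.

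Markers of ependyma and choroid plexus did not mark out cerebellum. Of 6 measured genes 2 were higher in liver, TTR at -6.85 and KL at -1.16, and 4 were not called. TTR, a main product of both choroid plexus and liver, was at 23.0, 43.2 and 10.2 in cerebellum.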
